A study of Mus musculus with 6 samples.

Results

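The Schlafen genes are a family of interferon-responsive genes that lie side by side on mouse chromosome 11. The 7 members described here, Slfn1, Slfn2, Slfn3, Slfn4, Slfn5, Slfn8 and Slfn9, were chosen by name from the 23398 genes of the expression table, and all 7 were found in it. They were measured by RNA sequencing in mouse dendritic cells grown from bone marrow (BMDC), kept in DMEM medium with serum and antibiotics, and exposed for 12 hours either to Ca(OH)2 nanoparticles (3 libraries) or to vehicle (3 libraries). Each library was made from 1 µg of total RNA. The mouse strain, sex and age, the growth factors of the culture and the particle dose are not given in the sources used here. The labels do not say whether the 3 libraries of a group came from separate mice or cultures, so p-values measure the spread between these libraries, which may be technical.

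Schlafen proteins share a core domain of RNA-binding and RNA-cleaving enzymes, and take their name from the German verb for sleeping because the first of them slowed the growth of thymocytes. The family is sorted by protein size into a short group (Slfn1 and Slfn2), an intermediate group (Slfn3 and Slfn4) and a long group (Slfn5, Slfn8 and Slfn9) whose members carry an additional helicase-like part. Type I interferon induces many of them in immune cells, and several members act on transfer RNA and so on protein synthesis.

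The 7 genes spanned 263.8 kb of chromosome 11, from 82951349 to 83215154 on mouse build GRCm38, in the order Slfn5, Slfn9, Slfn8, Slfn2, Slfn1, Slfn4 and Slfn3 (positions from GENCODE M21). Slfn8 and Slfn9 lie on the minus strand and the other 5 on the plus strand. All 7 are annotated as protein coding. The windows below are shown because the members fell into 2 sets by short sequences in front of their start sites. They are the 120 bases just before the RefSeq start site of each gene on GRCm38.p6, written 5′ to 3′ on the strand of the gene. Capitals in the first 4 mark the 9-base stretch ACTTCCTGG, which contains the core that ETS-family factors such as PU.1 bind, and in the last 2 they mark a match to the core of the interferon-stimulated response element (ISRE), searched on both strands as GAAA, any 2 bases and GAAA again. RefSeq gives Slfn8 more than 1 start, and the window shown is that of the start farthest upstream.
Slfn1 (chr11:83116700-83116819, plus strand): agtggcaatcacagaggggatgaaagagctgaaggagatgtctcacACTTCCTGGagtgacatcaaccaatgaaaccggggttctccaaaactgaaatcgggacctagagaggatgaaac
Slfn2 (chr11:83064992-83065111, plus strand): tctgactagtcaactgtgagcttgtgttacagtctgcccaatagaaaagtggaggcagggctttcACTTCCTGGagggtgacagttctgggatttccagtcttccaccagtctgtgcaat
Slfn3 (chr11:83191210-83191329, plus strand): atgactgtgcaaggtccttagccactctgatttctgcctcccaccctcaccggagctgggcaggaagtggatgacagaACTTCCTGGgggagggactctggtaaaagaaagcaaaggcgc
Slfn4 (chr11:83175066-83175185, plus strand): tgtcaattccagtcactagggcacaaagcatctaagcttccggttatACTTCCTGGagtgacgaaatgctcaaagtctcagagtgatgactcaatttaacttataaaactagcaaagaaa
Slfn8 (chr11:83020811-83020930, minus strand): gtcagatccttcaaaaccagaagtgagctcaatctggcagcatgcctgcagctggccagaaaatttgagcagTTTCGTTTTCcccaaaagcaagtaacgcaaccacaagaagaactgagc
Slfn9 (chr11:82991831-82991950, minus strand): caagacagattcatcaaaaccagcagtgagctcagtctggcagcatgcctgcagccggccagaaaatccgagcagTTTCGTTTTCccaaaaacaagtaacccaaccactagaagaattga

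The stretch ACTTCCTGG, noticed in these promoters and then counted, began 74, 55, 42 and 73 bases before the starts of Slfn1, Slfn2, Slfn3 and Slfn4. It was present in the 250 bases before the start in 4 of the 7 members, and in 0.7% of the 32851 promoters of the RefSeq table. In Slfn1 and Slfn4 the shared stretch ran on to 15 bases. The ISRE core was matched in Slfn5, Slfn8 and Slfn9, that is in 3 of the 7 members and in 2.98% of all promoters. The match lay 48 to 39 bases before the start of Slfn8, 45 to 36 bases before that of Slfn9 and 155 to 146 bases before that of Slfn5, whose window is not shown. For Slfn5 this holds for the RefSeq start at 82952102 only. GENCODE M21 starts the gene at 82951349, so the match at 82951947 to 82951956 lies inside the gene as placed above. Upstream sequences of Slfn8 and Slfn9 were identical at 204 of 245 aligned bases (83.3%). The NF-kappaB consensus was matched in Slfn1 and Slfn9 (7.25% of all promoters) and the gamma-activated sequence TTCNNNGAA in 0 of the 7 members (7.02% of all promoters). These are matches of letters and say nothing about binding, and paralogs share ancestry, so their promoters are not independent.

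Values are FPKM, fragments per kilobase of gene on a library scale set by the authors, which allows levels to be compared between genes. The values were whole numbers of reads once gene length was taken out, and 17285514 to 21980200 reads per library were recovered. Expression was compared with limma on log2(FPKM + 1) over the 10682 genes that reached 1 FPKM in 3 or more libraries. All 7 members entered this test, and p-values were adjusted over all of these genes by the Benjamini-Hochberg method, with a threshold of 0.05. Some genes named below, such as Slfn4, Heatr9, Gm20234, Cxcl10 and Nfkbiz, were under 1 FPKM in every vehicle library. They passed the filter only through the nanoparticle libraries, where they were high. On this scale the change of low genes is understated. Among all genes tested 1817 were higher and 1733 lower with nanoparticles, and with libraries scaled by their recovered reads the split was 1108 and 3613. Under that scaling the tested genes had a median change of -0.28 (log2), against which changes on it are to be read. Nanoparticle library 1 stood apart from the other nanoparticle libraries: it was at least 2 times the mean of libraries 2 and 3 in 7.91% of tested genes. Results that rest on it are given with and without it. The samples are bulk RNA, so more RNA per cell and more cells of a type cannot be told apart.

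With nanoparticles 6 of the 7 Schlafen genes rose and Slfn9 did not pass the test. Of all genes tested 17% rose and 33.2% changed in either direction. The groups did not overlap in the same 6 members, with nanoparticles higher, against 25.9% of all genes tested (52.1% in either direction). The log2 change was at least 2 in 5 of the members (Slfn1, Slfn2, Slfn4, Slfn5 and Slfn8), against 2.9% of all genes tested that rose by as much, and the median over the 7 members was 2.72. The summed level of the 7 genes was 6.72 times as high with nanoparticles, going from 169 ± 3.85 FPKM to 1132 ± 348 FPKM (SD, n = 3 each). No test was made of the sum. In the single nanoparticle libraries the sum was 9.08, 5.28 and 5.79 times the vehicle mean. The same 6 genes passed with each of the other scalings, filters and pseudocounts, and in 4 of the 14 alternative settings Slfn4 alone no longer passed.

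**Figure D1:**
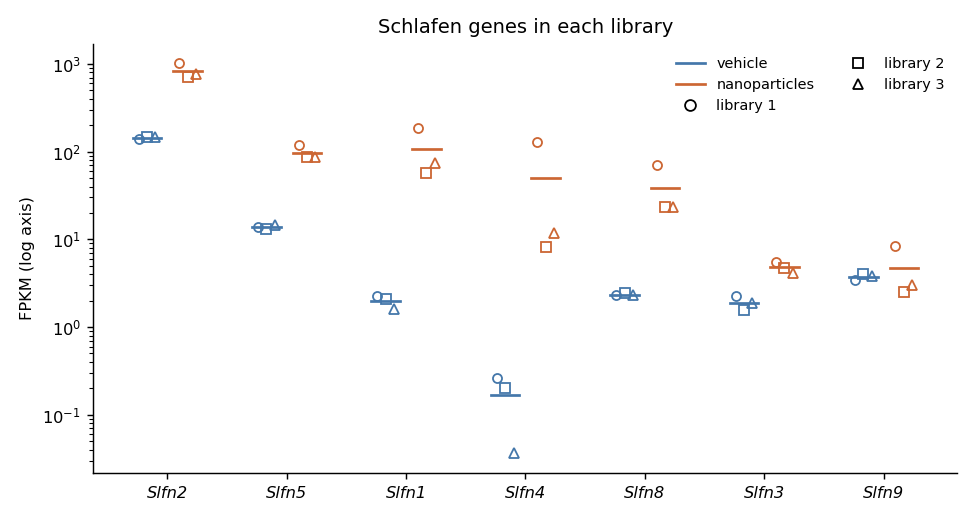
FPKM of the 7 Schlafen genes in each library on a log axis, vehicle in blue and nanoparticles in orange. Symbols are the 3 libraries of a group and bars are group means. The groups do not overlap in 6 genes, and in Slfn9 nanoparticle library 1 lies above and libraries 2 and 3 below the vehicle libraries.

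Slfn2, a short member that keeps T cells and monocytes in a resting state and shields transfer RNA from cleavage by angiogenin, was the most abundant Schlafen gene in every library. It was at 140.2, 146 and 148 FPKM in vehicle libraries 1 to 3 and at 1012, 707 and 773 FPKM in nanoparticle libraries 1 to 3. All nanoparticle libraries lay far above all vehicle libraries, which differed little from each other. The mean rose 5.74-fold, from 145 ± 4.01 to 831 ± 160.2 FPKM (SD, n = 3 each), and limma gave a log2 change of 2.50 (SE 0.17, adjusted p = 2.1e-04). By level, Slfn2 ranked 279, 263 and 255 among all genes of the table in vehicle, and 53, 78 and 78 after exposure to nanoparticles.

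Slfn1, the other short member and the one whose forced expression arrests thymocyte growth, was near the lower end of the family in resting cells and among the highest members after treatment. Its level was 2.26, 2.11 and 1.59 FPKM in the vehicle libraries and 187, 56.8 and 74.8 FPKM in the nanoparticle libraries. The groups were far apart, and nanoparticle library 1 was 2.85 times the mean of the others. The ratio of means was 53.4 with all libraries and 33.1 without nanoparticle library 1. The log2 change was 4.98 (SE 0.43, limma adjusted p = 4.5e-04), and 4.48 without that library. On this scale it was the largest change in the family and the 35th largest increase of the 10682 genes tested. The order of Slfn1 and Slfn4 turns with the scale: with a pseudocount of 0.1 FPKM the log2 changes were 5.49 for Slfn1 and 6.56 for Slfn4, and with limma-voom 5.55 and 7.45. Slfn1 was at 0.0108 to 0.0161 times the level of Slfn2 in vehicle and at 0.185, 0.0803 and 0.0967 times that level in nanoparticle libraries 1 to 3.

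Slfn4, an intermediate member known from macrophages and immature myeloid cells, was nearly absent from resting cells. It rested on 21, 16 and 3 reads in the vehicle libraries, or 0.266, 0.204 and 0.0362 FPKM, and on 8359, 539 and 894 reads in the nanoparticle libraries, or 129, 8.22 and 11.7 FPKM. The 95% Poisson interval of the 3 reads in vehicle library 3 is 0.619 to 8.77 reads and covers counting error only. Every nanoparticle library was above every vehicle library, but nanoparticle library 1 was 13.0 times the mean of libraries 2 and 3, the widest such gap in the family. The ratio of means was therefore 295 with all libraries and 59.1 without nanoparticle library 1. The log2 change was 4.41 (SE 0.96, limma adjusted p = 0.0146) and without nanoparticle library 1 it was 3.22 (limma adjusted p = 1.3e-05). Slfn4 did not pass when any 1 vehicle library was left out (limma adjusted p = 0.0525, 0.0529 and 0.0567) or with limma-voom on the recovered reads (adjusted p = 0.086). With no filter on low values its limma adjusted p was 0.0408.

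Slfn3, the intermediate member next to Slfn4 on the chromosome, had the smallest of the called changes. It was at 2.25, 1.57 and 1.87 FPKM in vehicle and at 5.53, 4.75 and 4.17 FPKM with nanoparticles. The groups did not overlap, and nanoparticle library 1 was close to the others, at 1.24 times their mean. The mean rose 2.54-fold, and limma gave a log2 change of 1.01 (SE 0.14, adjusted p = 0.0025). Relative to a library's summed FPKM the log2 change was 0.66 and still passed (limma adjusted p = 0.0229). Slfn4 was below Slfn3 in each vehicle library and above it in each nanoparticle library, with Slfn4 to Slfn3 ratios of 0.0194 to 0.130 and of 23.4, 1.73 and 2.81.

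Slfn5, a long member found in the nucleus, was second to Slfn2 in the resting cells. It was at 13.7, 13.1 and 14.5 FPKM in vehicle and at 118.5, 86.8 and 86.1 FPKM with nanoparticles. Its nanoparticle libraries were close to each other. The mean rose 7.07-fold, from 13.7 ± 0.705 to 97.1 ± 18.5 FPKM (SD, n = 3 each), and limma gave a log2 change of 2.72 (SE 0.15, adjusted p = 1.1e-04). Slfn2 and Slfn5 moved by similar amounts, so that Slfn2 stayed 10.2 to 11.2 times as high as Slfn5 in vehicle and was 8.15 to 8.98 times as high with nanoparticles. Exons of the antisense gene Slfn5os overlap 559 of the 6326 exon bases of Slfn5. Slfn5os itself held 0, 0 and 0 reads in vehicle and 3, 1 and 0 reads with nanoparticles. Reads of the overlap cannot be assigned to either gene without knowing how strand was counted.

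**Figure D2:**
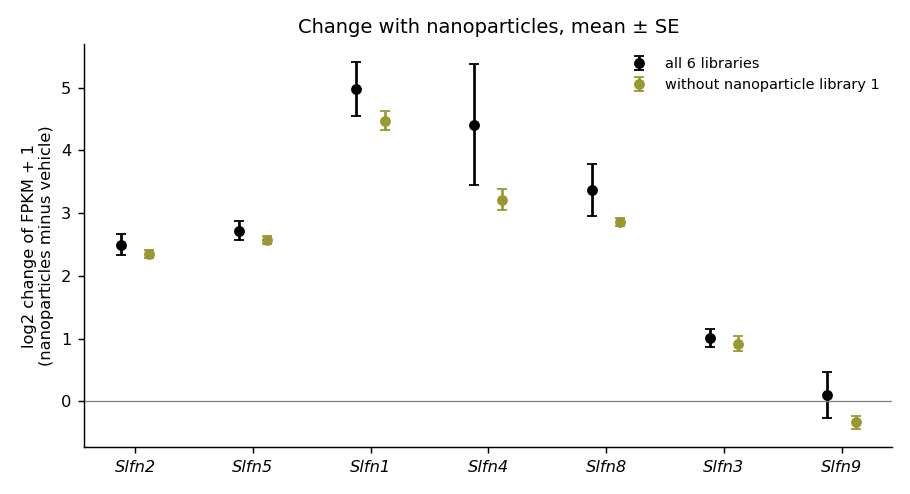
Log2 change of FPKM + 1 (nanoparticles minus vehicle) of each member from limma, with its standard error, over all 6 libraries (black) and without nanoparticle library 1 (olive). The estimate for Slfn4 falls from 4.41 to 3.22 and that for Slfn9 changes sign from 0.11 to -0.34, while the other 5 members remain above 0.

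The long members Slfn8 and Slfn9, which are close relatives next to each other with similar promoters, parted. Slfn8 was at 2.32, 2.42 and 2.31 FPKM in vehicle and at 69.7, 23.4 and 23.3 FPKM with nanoparticles, with nanoparticle library 1 the highest. Its mean rose 16.5-fold, or 9.93-fold without nanoparticle library 1, and the log2 change was 3.37 (SE 0.42, limma adjusted p = 0.0017). Slfn9 was at 3.43, 4.02 and 3.82 FPKM in vehicle and at 8.47, 2.51 and 3.02 FPKM with nanoparticles. Its nanoparticle library 1 was above and libraries 2 and 3 were below all vehicle libraries. The log2 change of Slfn9 was 0.11 (SE 0.37, limma adjusted p = 0.852), and without nanoparticle library 1 it was -0.34 and passed as a decrease (limma adjusted p = 0.0213). In the comparison without that library 34.3% of all genes tested were higher and 30.5% lower. Its change was -0.16 with libraries scaled by recovered reads and -0.26 with scaling by summed FPKM, but relative to the median of the tested genes it was 0.12 and 0.13, close to the 0.11 of the deposited scale.

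The order of these relatives was turned around in every library. Slfn8 was at 0.675, 0.602 and 0.603 times the level of Slfn9 in vehicle and at 8.23, 9.30 and 7.71 times that level with nanoparticles. Unlike the levels themselves, this ratio was similar in nanoparticle library 1 and in libraries 2 and 3. The difference between their log2 values shifted by 3.27 between groups (exact permutation test, two-sided, p = 0.1, the smallest p that 3 libraries against 3 allow, adjusted p = 0.117 over the 21 pairs of members, n = 3 per group). None of the 21 pairs can pass a threshold of 0.05 in this design. A turned or shifted ratio was not particular to these 2 genes: the log2 differences did not overlap between groups in 18 of the 21 pairs. For Slfn1 minus Slfn9 the shift was larger, at 4.87. Its SD over the nanoparticle libraries was 0.141, against 0.156 for Slfn8 minus Slfn9. The pseudogene Slfn10-ps, which lies between Slfn8 and Slfn2, also had nanoparticle library 1 above and libraries 2 and 3 below all vehicle libraries, with 3.96, 3.02 and 3.27 FPKM in vehicle and 13.5, 2.85 and 1.26 FPKM with nanoparticles (log2 change 0.19, SE 0.64, limma adjusted p = 0.848). Without nanoparticle library 1 its log2 change was -0.58 (limma adjusted p = 0.06).

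How reads of these similar genes were split bears on their values. Of all stretches of 50 bases in the GENCODE M21 transcripts of a gene, 14.6% were shared with another Schlafen gene for Slfn8, 11.2% for Slfn9 and 19.7% for Slfn10-ps. The shares were 8.15% for Slfn4, 7.39% for Slfn3, 4.27% for Slfn2, 0.606% for Slfn1 and 0% for Slfn5. Values of Slfn8, Slfn9 and Slfn10-ps are uncertain to the extent that reads of the shared part were split between them. With genes outside the family, Slfn3 shared 10.2% of its stretches, Slfn4 4.49% and Slfn5 3.68%. The long member Slfn14 was not analysed here.

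The ranking of the family by level differed between groups. In vehicle the order by mean was Slfn2, Slfn5, Slfn9, Slfn8, Slfn1, Slfn3 and Slfn4, and the neighbours Slfn1 and Slfn3 overlapped. With nanoparticles, over all 3 libraries, it was Slfn2, Slfn1, Slfn5, Slfn4, Slfn8, Slfn3 and Slfn9. There the neighbours Slfn1 and Slfn5, Slfn5 and Slfn4, Slfn4 and Slfn8, and Slfn3 and Slfn9 overlapped between libraries. The places of Slfn1 before Slfn5 and of Slfn4 before Slfn8 rest on nanoparticle library 1: in libraries 2 and 3 Slfn5 was above Slfn1 and Slfn8 was above Slfn4. As a share of the family sum, Slfn2 made up 85.8% ± 0.485 in vehicle and 66.1%, 79.5% and 79.2% in nanoparticle libraries 1 to 3. Slfn1 went from 1.18% ± 0.232 in vehicle (SD, n = 3) to 12.2%, 6.38% and 7.66%. Slfn5 kept a similar share, with 7.72% to 8.41% in vehicle and 7.74% to 9.76% with nanoparticles. Slfn9 went from 2.23% ± 0.143 in vehicle (SD, n = 3) to 0.554%, 0.282% and 0.309%.

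**Figure D3:**
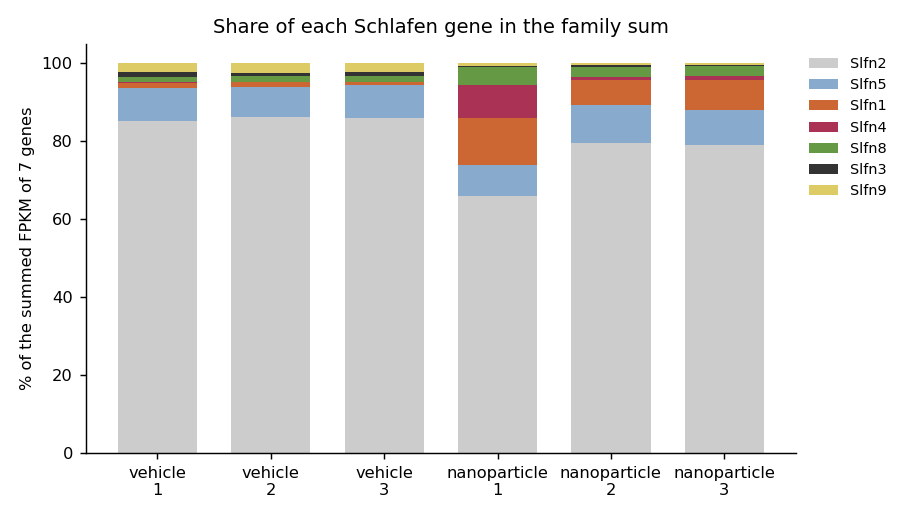
Share of each member in the summed FPKM of the 7 Schlafen genes, 1 bar per library. Slfn2 makes up most of each bar, Slfn1 and Slfn8 widen in all nanoparticle libraries, and Slfn4 is a visible share (8.44%) in nanoparticle library 1.

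Nanoparticle library 1 was the highest nanoparticle library in 7 of the 7 members, against 42.3% of all genes tested. It was at least 2 times the mean of libraries 2 and 3 in 4 members, Slfn1, Slfn4, Slfn8 and Slfn9, while in Slfn2, Slfn3 and Slfn5 the ratio was 1.24 to 1.37. The median ratio was 2.85 over the members, 1.89 over 25 interferon-stimulated genes and 0.970 over all genes tested. Transcripts of Irf7, the interferon-induced factor that amplifies interferon production, split in the same direction, with 366, 106 and 124 FPKM in nanoparticle libraries 1 to 3 against 1.88 to 2.10 FPKM in vehicle. Ifnb1, which encodes interferon beta, went the other way, with 0.653, 3.46 and 3.67 FPKM in nanoparticle libraries 1 to 3 and 0.335, 0 and 0 FPKM in vehicle. It was under the filter on low values and was not tested. Both genes were singled out after their values were seen.

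**Figure D4:**
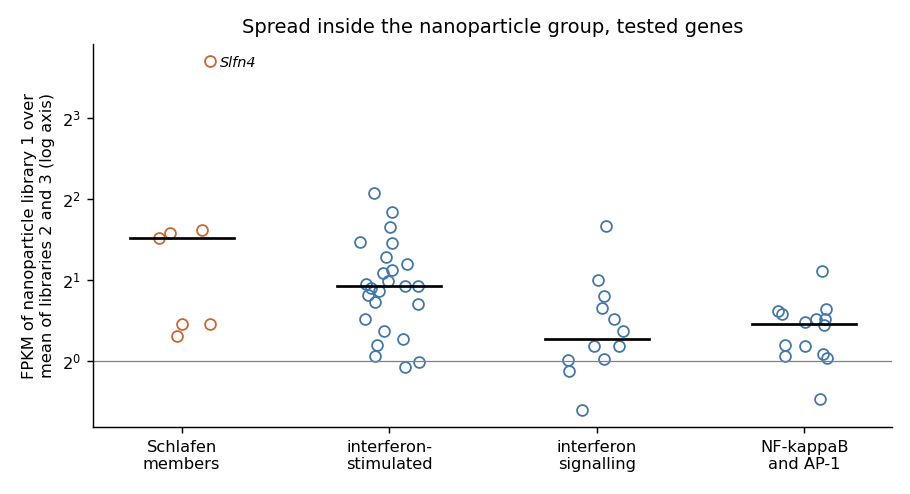
FPKM of nanoparticle library 1 divided by the mean of nanoparticle libraries 2 and 3 (log axis, 1 point per tested gene, bars are medians) for the Schlafen members and 3 gene lists. All 7 members lie above 1, and Slfn4, at 13.0, lies above every gene of the lists shown.

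The genes of interferon signalling and response rose along with the Schlafen genes. Of 12 tested signalling genes 9 rose and 0 fell (median log2 change 1.79), against 17% and 16.2% of all genes tested. The split was the same with scaling by recovered reads. With scaling by summed FPKM 8 rose and 1 fell, Irf3 (-0.32, limma adjusted p = 0.0428). Irf1, a factor induced by interferon, went from 5.58 ± 0.0736 to 35.4 ± 2.75 FPKM (SD, n = 3 each, limma adjusted p = 3.9e-05). Usp18, a brake on the interferon receptor, changed by 4.72 on the log2 scale (SE 0.22, limma adjusted p = 7.1e-05). Stat2 and Irf9, which belong to the complex that binds the ISRE, changed by 2.03 and 1.55 on the log2 scale (limma adjusted p = 0.0025 and 1.8e-04, both singled out after their values were seen). All 25 of the interferon-stimulated genes rose, with a median log2 change of 3.97 that lay above that of the Schlafen members. Those with the smallest adjusted p were Cxcl10, Isg15 and Zbp1, which encode a chemokine, a ubiquitin-like modifier and a nucleic acid sensor, with log2 changes of 6.36, 7.15 and 3.97. The list was drawn up with earlier results of these libraries known and is not independent evidence of its direction.

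NF-kappaB and AP-1, which act downstream of pattern receptors, were represented by 14 tested genes. Of these 11 rose and 1 fell (median log2 change 1.47), against 17% and 16.2% of all genes tested. Under either other scaling 10 rose and 2 fell. Nfkbiz, the inhibitor gene Nfkbia and the subunit gene Nfkb2 had the smallest adjusted p, with log2 changes of 4.14, 3.21 and 2.70. Fos, part of AP-1, fell by 0.94 on the log2 scale (SE 0.12, limma adjusted p = 0.0019). Of 8 tested genes that cut, modify or protect transfer RNA, 0 passed in limma (median log2 change -0.14), against 33.2% of all genes tested that changed in either direction. With limma-voom 0 passed as well. They include Ang, which encodes the nuclease angiogenin, at 0.916 to 1.92 FPKM in vehicle and 1.06 to 1.63 FPKM with nanoparticles, and its inhibitor gene Rnh1 at 215 to 221 FPKM in vehicle and 133 to 251 FPKM with nanoparticles (both named after their values were seen). The count for this list rests on the scale: it was 3 with libraries scaled by recovered reads and 5 with scaling by summed FPKM, all of them lower. Of 10 genes of quiescence and proliferation 1 rose and 5 fell, against the same 17% and 16.2% of all genes tested. The list pools genes of both kinds, so its count does not give a direction for either. The 5 that fell were Klf2 (log2 change -0.70, limma adjusted p = 0.0056), Klf4, Myc, Top2a and Ccna2. Top2a, needed to untangle chromosomes in dividing cells, the cyclin gene Ccna2 and the factor gene Klf4 fell by 2.79, 2.58 and 2.44 on the log2 scale, and Cdkn1a, an inhibitor of cell division, rose by 0.71 (limma adjusted p = 0.0105). Cdkn1a did not pass with scaling by recovered reads (0.36, limma adjusted p = 0.062) or by summed FPKM (0.24, limma adjusted p = 0.082), where 0 genes of the list rose and 7 fell.

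The changes were compared with those of genes on either side of the cluster. Of 8 tested neighbours, 3 rose and 0 fell (median log2 change 0.28), against 17% and 16.2% of all genes tested. On the Slfn5 side, Nle1 and Rad51d, 42.9 and 60.7 kb from the cluster, had log2 changes of -0.13 and -0.10 and did not pass (limma adjusted p = 0.432 and 0.704). Rffl, a ubiquitin ligase gene 80.1 kb away, rose by 0.81 on the log2 scale (SE 0.22, limma adjusted p = 0.0333). Rffl did not pass with scaling by recovered reads or by summed FPKM (limma adjusted p = 0.107 and 0.231), while Nle1 then passed as a decrease (limma adjusted p = 0.0343 and 0.0185). Rad51d passed as a decrease without nanoparticle library 1 (-0.28, limma adjusted p = 0.0176). Fndc8 and Unc45b were under the filter, at no more than 0.216 and 0.335 FPKM in any library. On the Slfn3 side, the adaptor gene Ap2b1, 83.9 kb away, was at a log2 change of -0.01 (limma adjusted p = 0.980). Rasl10b and Mmp28, at no more than 0.0611 and 0.125 FPKM in any library, were not tested, and Taf15 was at 0.24 (limma adjusted p = 0.126), or -0.08 and -0.20 with those scalings. Without nanoparticle library 1 Taf15 was at 0.25 and passed (limma adjusted p = 0.0425). Farther out, 297 and 311 kb from the cluster, Heatr9 rose from at most 0.0511 FPKM in vehicle to 7.09, 1.48 and 1.66 FPKM (limma adjusted p = 0.0204). Its neighbour Ccl5, a chemokine gene, was at 2.72, 3.21 and 2.44 FPKM in vehicle and at 5815, 1665 and 1665 FPKM with nanoparticles, and it rose by 9.39 on the log2 scale (SE 0.49, limma adjusted p = 9.8e-05). When nanoparticle library 1 was left out, Heatr9 stood at 1.33 and Ccl5 at 8.79 on that scale, and the ratio of means of Ccl5 went from 1093 to 597. Gas2l2 was not analysed here. Thus on the deposited scale and over all libraries Nle1, Rad51d and Ap2b1 did not pass, and the calls of Nle1 and Rad51d depend on the scale or on that library.

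**Figure D5:**
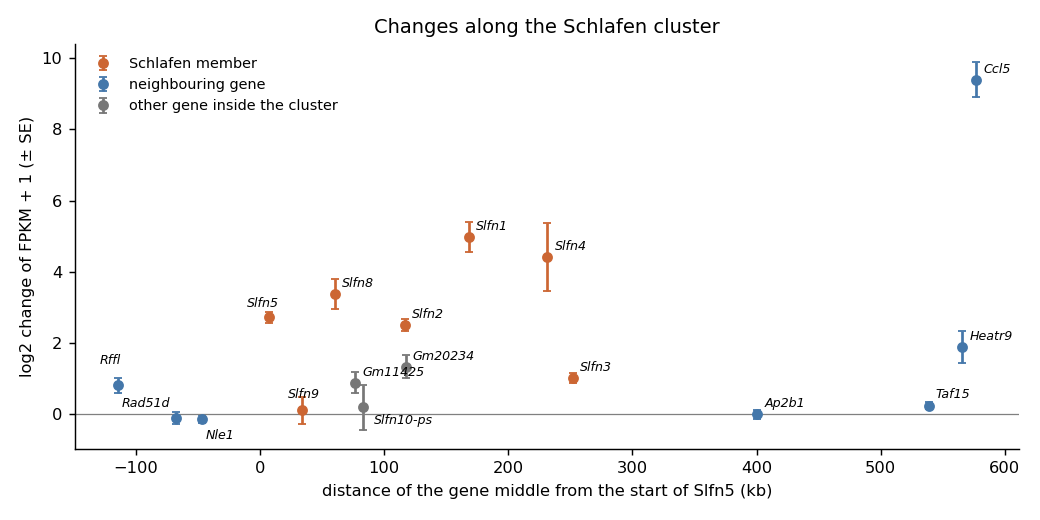
Log2 change of FPKM + 1 with its standard error for the tested genes named here along the Schlafen region of chromosome 11, by the distance of the gene's middle from the start of Slfn5. Schlafen members (orange) lie between 0.11 and 4.98, and the neighbours Nle1, Rad51d and Ap2b1 (blue) lie between -0.13 and -0.01. The other neighbours shown, Taf15, Rffl, Heatr9 and Ccl5, lie at 0.24, 0.81, 1.88 and 9.39, the last above every member.

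Among the other genes inside the cluster, chosen by position, 2 besides Slfn10-ps were tested. Gm20234, an antisense gene across Slfn2 whose exons do not overlap those of Slfn2, was at 0.280, 0.352 and 0.401 FPKM in vehicle and 4.78, 1.43 and 1.74 FPKM with nanoparticles (log2 change 1.33, SE 0.32, limma adjusted p = 0.0220). The processed pseudogene Gm11425, next to Slfn10-ps, was at 5.44, 4.96 and 3.85 FPKM in vehicle and 15.2, 6.31 and 8.86 FPKM with nanoparticles. It had a log2 change of 0.88 and did not pass (limma adjusted p = 0.0632).

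The genes whose profiles over the 6 libraries were closest to a member, by the root mean square difference of log2(FPKM + 1) after subtracting the vehicle mean, were found for the 6 members that rose. For Slfn1 they were the interferon-inducible GTPase gene Gbp2 (difference 0.133), Ifit3b (0.171) and Ccrl2 (0.277). For Slfn2 they were Parp12 (0.0707), Mfsd7a (0.0883) and Tapbp (0.0914), and for Slfn5 Nfkb2 (0.0396), Olr1 (0.0717) and Ppfia3 (0.102). The nearest genes to Slfn8 were Procr (0.0686) and the interferon-inducible GTPase genes Irgm1 (0.159) and Igtp (0.185). Slfn3 was closest to Serpinb9b (0.0558), Nfkbid (0.0740) and Kpna3 (0.0754). The profile of Slfn4 had the least close match, Ms4a4c (0.287), followed by H2-Q7 (0.428) and H2-Q6 (0.431). How far reads of H2-Q7 and H2-Q6 can be told apart from those of related genes was not tested, so their values are uncertain. Likeness on this scale depends on the pseudocount for genes that are low in vehicle. With 0.1 FPKM the log2 changes were 4.78 for Ppfia3 and 2.80 for Slfn5, and 6.93 for Ifit3b and 5.49 for Slfn1.

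Markers of cell types were read beside these results. Of 7 dendritic cell markers, Flt3 was at or near 0 in all libraries, while Itgax was at 442 to 456 FPKM in vehicle and 248 to 398 FPKM with nanoparticles. Cd209a was at 5.17 to 6.21 FPKM in vehicle and at no more than 0.0763 FPKM with nanoparticles. Zbtb46 and Ciita fell by 0.60 and 1.26 on the log2 scale (limma adjusted p = 0.0191 and 0.0026). Cd74, which makes up most of the sum, was at 3902 to 4264 FPKM in vehicle and at 2270, 4790 and 5273 FPKM with nanoparticles. It did not pass over all libraries (limma adjusted p = 0.865) and passed as an increase without library 1 (0.29, limma adjusted p = 0.0118). H2-Ab1 was at 982 to 1034 FPKM in vehicle and at 494, 1060 and 1162 FPKM with nanoparticles. The summed level of the 7 was 5364 to 5768 FPKM in vehicle and 3018, the lowest, in nanoparticle library 1 against at most 6818 in the others. All 5 macrophage markers were expressed, with sums of 573 to 586 FPKM in vehicle and 753 to 1029 FPKM with nanoparticles, the highest in library 1. T cells express Slfn1 and Slfn2. The sum over 7 T cell markers was 8.05 to 10.04 FPKM in vehicle and 11.1 to 20.4 FPKM with nanoparticles, most of it Lat. Cd3e, Cd3d, Cd3g and Cd4 were at no more than 0.0999 FPKM in any library. Lck was at 0.213 to 0.276 FPKM in vehicle and at 1.00, 0.701 and 1.40 FPKM with nanoparticles. Trac was at no more than 0.162 FPKM in vehicle and at 0, 0 and 0.500 FPKM with nanoparticles. The sums over 5 B cell and 4 NK cell markers were at most 0.394 and 0.0803 FPKM. Of 8 neutrophil markers, Ly6g, Elane and Mpo were at no more than 0.307 FPKM in any library. S100a8 rose from 34.9 ± 1.32 to 83.1 ± 30.03 FPKM (SD, n = 3 each, limma adjusted p = 0.0216). S100a9, Camp and Ngp were higher in nanoparticle libraries 2 and 3 than in library 1, with 0.352, 13.2 and 10.2 FPKM for S100a9, 0.242, 1.83 and 1.99 FPKM for Camp and 0.0501, 4.30 and 3.23 FPKM for Ngp, against at most 1.65, 0.190 and 0.901 FPKM in vehicle. The neutrophil sum was 34.7 to 39.0 FPKM in vehicle, 50.8 in nanoparticle library 1, where Slfn4 was highest, and at most 125 in the other nanoparticle libraries. Of the 2 platelet markers measured, Pf4, which macrophages also express, passed the filter and Itga2b did not, and their sum was 191 to 215 FPKM in vehicle and 141 to 641 FPKM with nanoparticles, the lowest in library 1. The part of macrophage and other cells in the Schlafen changes was not tested.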

How the data were processed

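The 6 deposited columns, 1 per library, were read from the authors' table, and the titles gave each library its group and number. Per the submitters' processing notes, CASAVA, STAR 2.5, HTSeq, edgeR 3.16.5 and DESeq2 were used, with no role given, and hg19 and mm10 are named as builds. The deposited values were treated as FPKM, a unit inferred from the values. A table named for read counts holds the same 140388 values. With GENCODE M21 exon lengths, 95.8% to 96.1% of values above 0 were whole reads (within 0.01), and lengths that gave whole reads were searched for 541 further genes with at least 100 reads on average. How the deposited scale between libraries was set is not given in the sources used here. On it the median log2 change of the tested genes was -0.001, and its changes are read as if most genes did not change.

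The pseudocount was 1 FPKM. A linear model with group as its term was fitted with limma 3.58.1 in R 4.3.3, moderated with a mean-variance trend, checked on simulated data. Exact permutation tests used scipy 1.17.1 in Python 3.11.15. Alternatives were a pseudocount of 0.1, other filters, scaling by summed FPKM or recovered reads, no trend, a replicate block, and each library left out. The limma-voom alternative was added after seeing the data. Members and lists were chosen with earlier results of these data known. Named genes are all members and other Slfn genes of the table, up to 3 genes per list by adjusted p, smallest first, those called against their list, all neighbours (1 of them and 1 gene of a list are not reported here) and the 3 closest profiles per called member. Lists are described by counts and medians, with no set test. Promoter sequences are from RefSeq (GRCm38.p6) and matched all 7 members by symbol.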

Additional observations from a re-analysis of the deposited data

How the results depend on the processing

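Slfn1, Slfn2, Slfn3, Slfn5 and Slfn8 kept their direction and passed in all 14 alternative settings, and Slfn4 passed in 10 of them. The change of Slfn9 was -0.26 on the log2 scale with scaling by summed FPKM, -0.16 with scaling by recovered reads and -0.34 without nanoparticle library 1, and that of Slfn10-ps was -0.15, -0.067 and -0.58. Both scalings lower nanoparticle values relative to vehicle, and on log2(FPKM + 1) this shifts genes with low values less. With scaling by summed FPKM Slfn4 went from 4.41 to 4.16 and Slfn2 from 2.50 to 2.03. Relative to the median of all genes Slfn9 stayed at 0.13 and 0.12 and Slfn10-ps at 0.24 and 0.21. The signs of Slfn9 and Slfn10-ps thus depend on the scale. The cause of the change without nanoparticle library 1 was not tested. With each library left out in turn the change ranged from -0.34 to 0.38 for Slfn9 and from -0.58 to 0.77 for Slfn10-ps. Over all genes, scaling by summed FPKM gave 881 higher and 4307 lower, and scaling by recovered reads 1108 and 3613, since those scales move the median of all genes to -0.38 and -0.28. The transfer RNA list then held 5 and 3 called genes, all lower, and the neighbours 2 higher and 1 lower under each. With no filter on low values 1 of the neighbours was called. With each library left out in turn, 2141 to 6923 genes were called, 1114 to 3660 higher and 1027 to 3263 lower. In those fits 0 to 2 genes of the transfer RNA list and 1 to 5 neighbours were called, and the largest counts came without nanoparticle library 1. Deviations from the group mean were weakly correlated between same-numbered libraries (0.0654, 0.113 and -0.0577), against -0.129 to 0.108 between differently numbered ones. With 3 libraries per group these values cannot show whether the numbers pair the libraries. With the replicate block 2785 genes and the same count of 6 members were called. Depth limits Slfn4 in vehicle and Slfn5os most.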
